A study of Mus musculus with 2 samples.

Results

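The Krüppel-like factors are a family of transcription factors, here the 10 genes Klf2, Klf3, Klf4, Klf5, Klf6, Klf7, Klf9, Klf10, Klf13 and Klf15, chosen by symbol from the 16040 genes of a tag count table of mouse lung fibroblasts. Serial analysis of gene expression (SAGE) was used, which counts short tags taken near the 3′ ends of transcripts, so a level depends on the number of transcripts and not on their length. The saline group was Lineage- GFP+ lung cells of Col1a2-EGFP mice 14 days after saline was injected into the trachea, and the bleomycin group was the same sort from mice of the same strain 14 days after bleomycin, a DNA-damaging drug that causes lung fibrosis in rodents. Both groups thus share the reporter, which is named for a type 1 collagen gene and limits the cells to those that use it, and each group is 1 library made from 3 mice. The age and sex of the mice and the markers behind the lineage gate are not stated in the sources used here.

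All Krüppel-like factors carry zinc fingers at the carboxyl end that bind GC-rich and CACCC elements in gene control regions, while their amino ends differ and recruit activators or repressors. Members are commonly sorted by these partners: an activator group that holds Klf2, Klf4, Klf5, Klf6 and Klf7, a group that binds the repressor CtBP and holds Klf3, and a group that binds the repressor Sin3 and holds Klf9, Klf10 and Klf13, with Klf15 outside these groups. Several of them, among them Klf2, Klf4, Klf6 and Klf10, are induced quickly by growth factors, stress and the handling of tissue, and Klf2 is also a well-known factor of endothelium.

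The saline library held 1080798 counts and the bleomycin library 1099840, so that 1 count is worth 0.912 and 0.922 CPM (the count relative to library size) after library scaling, and where no tag was seen the level could still be 2.74 or 2.77 CPM (3 counts). Fibroblast markers were abundant, with 14633 and 22212 counts over 7 genes, but 2 were called higher and 2 lower. Their median log2 ratio was −0.05. Col1a1 (2714 and 7925 counts) and Col1a2 (1636 and 5613) were the higher ones, and Dcn (4861 and 1606) and Tcf21 (338 and 93) the lower. The 12 leukocyte markers found together held 9 and 7 counts. Ptprc, which marks leukocytes, had 0 saline counts and 1 bleomycin count, and Epcam, an adhesion molecule of epithelium, had 1 and 0. Some other epithelial markers and most endothelial markers were present and lower in the bleomycin library. The 17 epithelial markers found held 778 saline counts and 199 bleomycin counts, with 3 of 7 tested called lower: Sftpc, a surfactant protein, at 154 and 7, Tppp3 at 535 and 153, and the club cell protein gene Scgb1a1 at 46 and 12. Tppp3 thus held most of these counts, and the cells that its tags came from were not tested. All 7 tested ratios were below 1. Among markers too scarce to test, Krt8, at 1 and 4 counts, and Foxj1, at 0 and 3, went the other way. The 16 endothelial markers held 624 and 41 counts, with Pecam1 at 53 and 3. Since each group is 1 library, nothing here was replicated: every test below sets one library against the other and not the conditions. In bulk cells, fewer cells of a type and less RNA per cell cannot be told apart.

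Within the family the libraries differed most clearly in Klf4, Klf2 and Klf9, which were lower after bleomycin, and in Klf6, which was higher. A difference was accepted at an adjusted p under 0.05 (two-sided exact binomial test, Benjamini-Hochberg over 9369 genes with at least 10 counts), and a call also needed a 2-fold change. All 10 members were tested. None of them was called, against 8.08% of tested genes called higher and 8.52% called lower. By the adjusted p alone 3 of 10 were lower and 1 higher, against 14.1% and 13.8% of tested genes. Their median log2 ratio of bleomycin over saline was −0.37, with 4 ratios above 1 and 6 below, beside 0.02 over all genes tested.

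**Figure D1:**
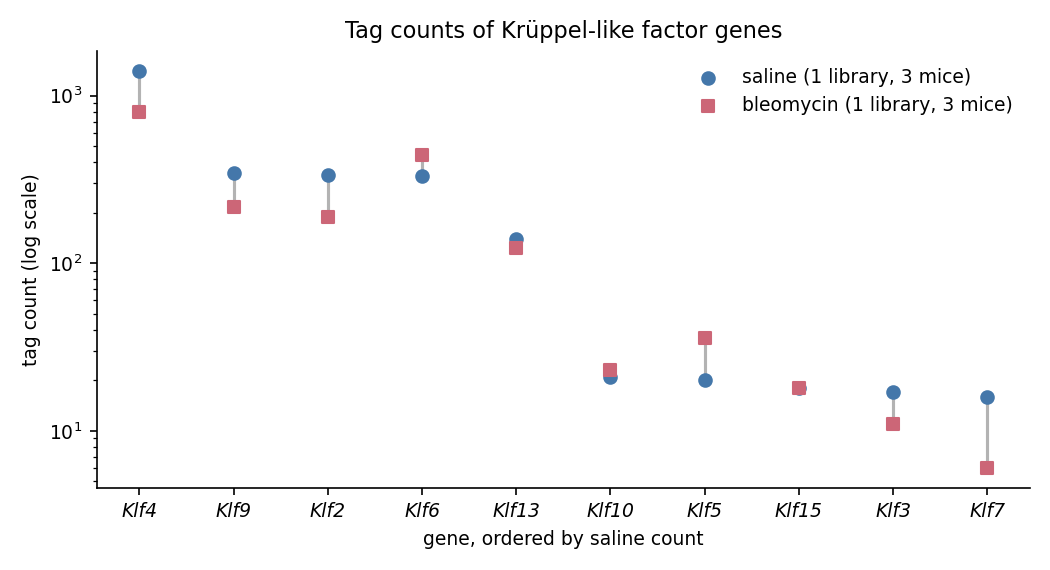
Tag counts (log scale) of the 10 Krüppel-like factor genes in the saline library (circles) and the bleomycin library (squares), each 1 library from 3 mice, ordered by saline count. Klf4 stood at 1411 and 795 counts, Klf6 was higher in the bleomycin library at 330 and 444, and 5 genes stayed at or below 36 counts in both.

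Klf4, which keeps many cell types differentiated, represses contractile genes in smooth muscle and is also a reprogramming factor, was by far the most abundant member. It had 1411 saline counts (1287 CPM) and 795 bleomycin counts (733 CPM), which placed it 125th and 208th among the genes tested. The ratio was 0.570, with an exact 95% interval of 0.522 to 0.622 and an adjusted p of 2.19e-36 in the exact binomial test. That interval excludes both equal levels and a fall to the ratio of 0.5 that a call required. Klf2, which holds endothelial cells and lymphocytes in a quiet state and was first described in lung, had 334 counts (305 CPM) and 189 counts (174 CPM). Its ratio of 0.572 (0.476 to 0.686; adjusted p = 7.28e-09 in the exact binomial test) lay next to that of Klf4. For each Klf2 count there were 4.22 Klf4 counts after saline and 4.21 after bleomycin, so these genes were lower in nearly the same proportion.

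Klf6, a widely expressed factor that rises after injury, went the other way within the same activator group. It had 330 saline counts (301 CPM) and 444 bleomycin counts (410 CPM). The ratio was 1.36 (1.18 to 1.57; adjusted p = 0.000186 in the exact binomial test), and it rose from place 498 to 355 in abundance. In the saline library Klf6 and Klf2 were level, at 0.988 Klf6 counts for each Klf2 count, whereas in the bleomycin library there were 2.35. Klf9, a small repressor of the Sin3-binding group that thyroid hormone and glucocorticoids induce, had 345 counts (315 CPM) and 217 counts (200.2 CPM). Its ratio of 0.636 (0.534 to 0.756; adjusted p = 1.91e-06 in the exact binomial test) overlapped the intervals of Klf2 and Klf4, so the 3 lower members were not separated from each other, while the interval of Klf6 lay above all 3.

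These 4 differences rest on counting error alone. When edgeR's exact test was given a coefficient of variation of 0.2 as an assumption, the adjusted p was 0.307 for Klf4, 0.334 for Klf2, 0.491 for Klf9 and 0.711 for Klf6, and none of the 10 members passed the threshold. The true variation between preparations cannot be estimated from 1 library per group.

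The stretches before the start sites of these 4 genes are shown because they are the members whose levels differed between the libraries. Each line gives 250 bases upstream of the start, 5′ to 3′ on the gene's strand, from the RefSeq promoter table of assembly GRCm38.p6, which had entries for 8 of the 10 members. Capitals mark the GC box GGGCGG and the CACCC box on either strand, the kinds of element that Krüppel-like factors and the related SP factors bind.
Klf4, chr4:55532476-55532725, minus strand: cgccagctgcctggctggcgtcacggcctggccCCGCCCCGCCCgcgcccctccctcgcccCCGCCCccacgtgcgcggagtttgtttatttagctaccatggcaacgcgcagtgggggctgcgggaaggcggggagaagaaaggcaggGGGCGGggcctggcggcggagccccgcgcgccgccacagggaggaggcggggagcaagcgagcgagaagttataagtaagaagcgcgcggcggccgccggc
Klf2, chr8:72318812-72319061, plus strand: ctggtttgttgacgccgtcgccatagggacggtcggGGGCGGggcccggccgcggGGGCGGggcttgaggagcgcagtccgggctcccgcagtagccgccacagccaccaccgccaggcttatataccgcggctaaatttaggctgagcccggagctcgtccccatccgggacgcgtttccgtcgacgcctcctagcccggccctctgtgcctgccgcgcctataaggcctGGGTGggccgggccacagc
Klf9, chr19:23140976-23141225, plus strand: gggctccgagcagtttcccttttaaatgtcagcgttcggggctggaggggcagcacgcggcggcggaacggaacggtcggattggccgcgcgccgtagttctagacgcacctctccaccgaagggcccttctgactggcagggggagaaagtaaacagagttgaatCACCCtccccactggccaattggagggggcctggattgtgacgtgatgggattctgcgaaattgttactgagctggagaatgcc
Klf6, chr13:5861239-5861488, plus strand: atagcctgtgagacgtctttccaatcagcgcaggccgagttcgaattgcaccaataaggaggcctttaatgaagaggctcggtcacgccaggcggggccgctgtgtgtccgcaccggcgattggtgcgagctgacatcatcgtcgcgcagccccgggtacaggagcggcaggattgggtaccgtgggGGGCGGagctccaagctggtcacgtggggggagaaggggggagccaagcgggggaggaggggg

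Klf4 had 4 GC boxes in this window, a pair of which share a base, and no CACCC box. Klf2 had 2 GC boxes and 1 CACCC box, Klf6 had 1 GC box alone, and Klf9 had 1 CACCC box alone. Such elements are common: 32.7% of the 32851 promoter windows of this length held a GC box and 52.0% a CACCC box. The Klf4 and Klf2 windows had a GC content of 74.0% and 71.2%, and those of Klf6 and Klf9 64.8% and 59.6%, beside a median of 52.4% over all windows. MEF2 factors, which act below the kinase ERK5, are a known route to Klf2 and Klf4. A match to the MEF2 site was found in Klf2, ctaaatttag at 118 to 109 bases before the start, which overlaps no capital letters, and in 2.92% of all windows. Klf4, Klf6 and Klf9 had no match to the MEF2 site, and none of the 8 members had one to the CArG box (1.47% of windows), to the cAMP response element TGACGTCA (1.55%) or to TATAAA (12.4%). A match is a description of the letters and not evidence of binding.

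The other 6 members did not pass the adjusted threshold. Klf5, which drives proliferation and the growth response of smooth muscle, had 20 saline counts and 36 bleomycin counts. Its ratio of 1.82 (1.03 to 3.32) was the highest of the family but had an adjusted p of 0.0979 in the exact binomial test. Klf7, known for its part in axon growth, had 16 and 6 counts and the lowest ratio, 0.379 (0.122 to 1.02; adjusted p = 0.141 in the same exact test). Both intervals reach past a 2-fold change at one end and to nearly equal levels, or across them, at the other, so at this depth neither a sizeable change nor its absence could be shown.

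Klf3, a CtBP-binding repressor of fat and blood cell genes, had 17 and 11 counts, with a ratio of 0.654 (0.277 to 1.48). Klf10, a member of the Sin3-binding group also called TGF-beta-inducible early gene, had 21 and 23 counts, with a ratio of 1.11 (0.586 to 2.10). Klf15, a metabolic regulator that glucocorticoids induce, had 18 counts in each library and a ratio of 1.01 (0.496 to 2.06). The intervals of Klf10 and Klf15 cover changes of more than 1.5-fold in both directions, and that of Klf3 covers a ratio well below 0.5. Klf13, a Sin3-binding factor known from lymphocytes, was deeper, with 139 counts (127 CPM) and 124 counts (114 CPM), and its ratio of 0.902 (0.702 to 1.16) leaves out a 2-fold change either way.

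**Figure D2:**
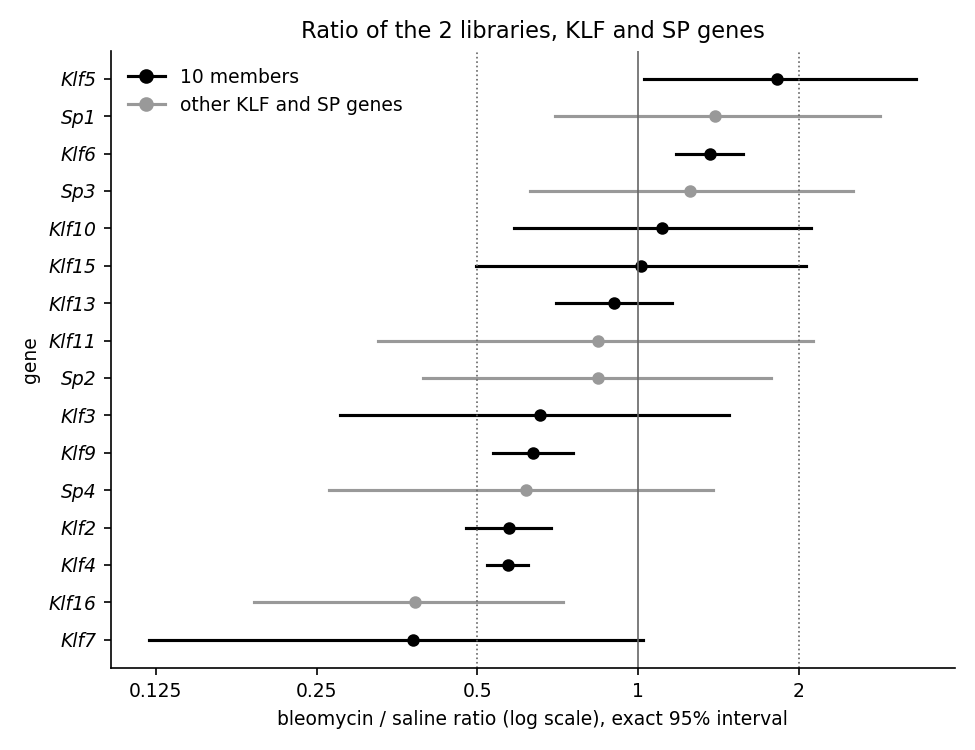
Ratio of the bleomycin to the saline library (log scale) with exact 95% intervals for the 10 members (black) and the other tested KLF and SP genes (grey); the solid line marks equal levels and dotted lines a 2-fold change. Klf4, Klf2 and Klf9 lie at 0.570, 0.572 and 0.636 with intervals below 1, Klf6 at 1.36 with an interval above 1, and the intervals of members with few counts are wide.

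Set among all genes tested, the members' ratios were moderate. Klf7 stood at percentile 8.64 of the log2 ratios and Klf5 at 84.7, and the remaining 8 members lay between them. Klf4 was at percentile 17.9, Klf2 at 18.2, Klf9 at 22.8 and Klf6 at 71.0. The small adjusted p of Klf4 thus goes with its high count and not with an extreme ratio.

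**Figure D3:**
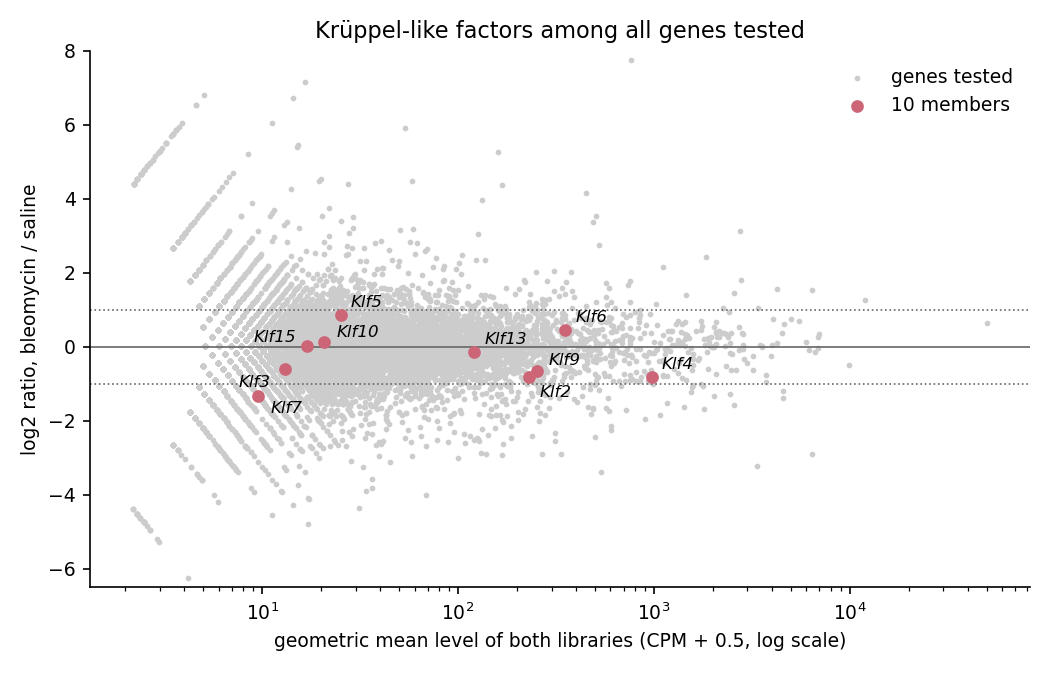
Log2 ratio of bleomycin over saline against the geometric mean level of both libraries (CPM + 0.5, log scale) for the 9369 genes tested (grey) and the 10 members (coloured); dotted lines mark a 2-fold change. Klf4, Klf2, Klf9 and Klf6 are well-counted genes inside the 2-fold lines, and of the members only Klf7, at −1.33, lies beyond them.

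Summed over the family, Krüppel-like factor tags were fewer in the bleomycin library, at 1863 counts (1718 CPM) against 2651 (2418 CPM), a ratio of 0.711. Without Klf4 the ratio was 0.871, without Klf2 and Klf4 it was 0.981, and without Klf2, Klf4 and Klf9 it turned to 1.19, at 561 and 662 counts. By group, the activator members summed to 2111 and 1470 counts (ratio 0.704), and the Sin3-binding members to 505 and 364 (ratio 0.729), of which Klf9 held 345 and 217. Within the activator group the members had ratios from 0.379 to 1.82.

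The make-up of the family shifted from Klf4 towards Klf6. Klf4 made up 53.2% (51.3 to 55.1, exact Clopper-Pearson interval) of the members' counts after saline and 42.7% (40.4 to 45.0) after bleomycin. Klf6 went from 12.4% (11.2 to 13.8) to 23.8% (21.9 to 25.8). Klf5 went from 0.754% (0.461 to 1.16) to 1.93% (1.36 to 2.67), intervals that do not overlap although its level did not pass the test. The share of Klf9 was 13.0% (11.8 to 14.4) and 11.6% (10.2 to 13.2), and that of Klf2 12.6% (11.4 to 13.9) and 10.1% (8.81 to 11.6), with overlapping intervals for both. Klf9, Klf2 and Klf6 shared the place behind Klf4 after saline, with overlapping intervals, and Klf6 alone held it after bleomycin. A share can also rise because other members are lower, so these values describe proportions within the family and not levels.

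**Figure D4:**
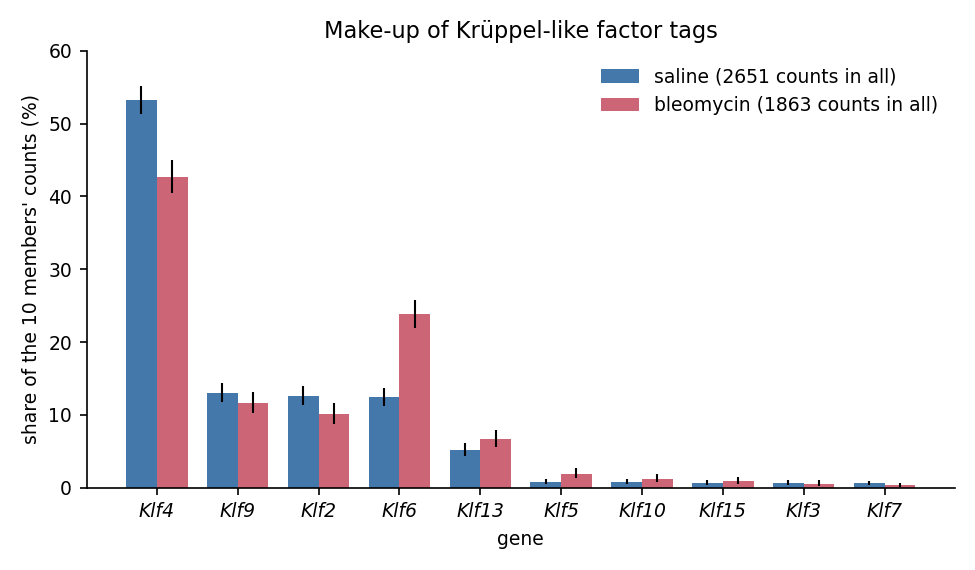
Share of each gene in the summed counts of the 10 members, in percent, for the saline (2651 counts) and bleomycin (1863 counts) libraries; error bars are exact 95% binomial intervals for counting error. The Klf4 share is 53.2% and 42.7%, and the Klf6 share 12.4% and 23.8%.

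Other genes of the wider KLF and SP family were scarce. Of 10 found in the table, 6 were tested, and 1 was called, lower. This was Klf16, a Sin3-binding repressor, with 37 and 14 counts, ratio 0.383 (0.191 to 0.725; adjusted p = 0.00905 in the exact binomial test), which was not called at an assumed variation of 0.2 (adjusted p = 0.208, edgeR's exact test), with Bonferroni adjustment or with a required ratio of 3. Klf11, a close relative of Klf10, had 12 and 10 counts. The SP factors, which bind the same GC boxes, had 16 and 22 counts for Sp1, 18 and 15 for Sp2, 17 and 21 for Sp3, and 18 and 11 for Sp4. None of these 5 passed the adjusted threshold, and all of their ratios lay between 0.618 and 1.39. Klf12, Klf14, Sp5 and Sp6 had at most 8 counts over both libraries and were not tested.

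What could bear on these counts was examined gene by gene. SAGE tags of this kind start at a CATG site, usually the one nearest the 3′ end of the transcript, and GENCODE transcripts (release M21) were matched to all 10 members by RefSeq record. This last site lay in the 3′ untranslated region of all 10, at 47 bases (Klf13) to 776 bases (Klf6) from the end, and the 25 bases that start there matched a CATG site of no other gene. Exons of genes on the opposite strand overlap Klf3 and Klf7, so their counts are less certain where strand was not used. The sources used here do not give how tags were assigned.

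Klf2, Klf4 and Klf6 often move with immediate early genes, and that list was lower as well. Of 28 tested immediate early and dissociation-induced genes, 8 were called lower and 0 higher, with a median log2 ratio of −0.72, and by the adjusted p alone 18 were lower and 2 higher. The ratio was 0.384 for Egr1, at 8106 and 3079 counts, and 0.440 for Fos, at 7525 and 3275, with intervals that lay below those of Klf4 and Klf2. Of the 6 called genes with the most counts, Nr4a1 had the lowest ratio (0.226) and Junb the highest (0.472). Klf6 was above 1 while most of this list was below. The part of this list in the Klf4 and Klf2 results was not tested.

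Endothelial transcripts differed by far more than Klf2. Of 12 tested endothelial markers 11 were called lower and 0 higher, with a median log2 ratio of −3.67, and their summed level over all 16 was 569 CPM after saline and 37.8 CPM after bleomycin. Emcn and Erg were at 0 after saline, and Kdr, Flt1 and Emcn after bleomycin. Of 6 tested endothelial targets of KLF2 and KLF4, 5 were called lower and 0 higher, with a median of −3.01, or −1.88 with 5 added to each count, since 4 of the 5 had at most 3 bleomycin counts. They include Thbd, thrombomodulin, at 1429 and 299 counts (ratio 0.212), Edn1, endothelin, at 30 and 3 (ratio 0.101), and S1pr1, a sphingolipid receptor, at 14 and 1 (ratio 0.0722), while Vcam1, an adhesion molecule that fibroblasts also make, had 685 and 763. Thbd alone had more saline counts than the 16 endothelial markers together, which held 624. The cells that Thbd tags came from were not tested. The other called targets, Tek at 38 and 3 counts and Cdh5 at 11 and 1, stand on both lists. The list of targets does not set apart genes that KLF2 and KLF4 raise from genes that they repress. The number of lower genes is thus no measure of the activity of these factors. The part of endothelial RNA in the Klf2 and Klf4 counts was not tested.

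Genes that act above Klf2 and Klf4 gave no call. Of 9 tested genes of the ERK5, MEF2 and CCM route none was called or passed the adjusted p alone, and their median log2 ratio was 0.02. Over all genes tested 16.6% were called and 27.9% passed the adjusted p. Only 5 of the 9 had at least 50 counts over both libraries, so changes in the scarcer genes of this route could be missed. Ccm2, an adaptor that restrains this route, was the most abundant, with 55 and 59 counts. Mapk7, which encodes ERK5 itself, had 1 and 2 counts and was not tested. Of 7 ubiquitin ligases that act on KLF proteins none was called or passed the adjusted p, the most abundant being Nedd4 with 248 and 221 counts, and levels of the proteins were not measured.

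Klf9 and Klf15 are glucocorticoid-induced, and genes of a glucocorticoid list, which holds the receptor too, were called in both directions. Of 10 tested, 3 were called higher and 2 lower, with a median log2 ratio of −0.71. By the adjusted p alone 3 were higher and 6 lower. The lower genes not called were Per1 (ratio 0.546), Dusp1 (0.593), Tsc22d3 (0.630) and Errfi1 (0.859). Fkbp5, a chaperone of the glucocorticoid receptor, had 10 and 95 counts (ratio 9.61), and Sgk1, a kinase, had 444 and 1514 (ratio 3.45). The metallothionein Mt2 had 4165 and 11843 counts (ratio 2.88). Nr3c1, the receptor itself, had 131 and 63 counts (ratio 0.486), and Hsd11b1, which regenerates the active hormone, had 1032 and 393 (ratio 0.385). Klf9, at 0.636, lay below 1 like the lower genes of this list, and Klf15 was at 1.01. Of 4 tested amino acid catabolism targets of KLF15 none was called or passed the adjusted p, among them Bckdha with 48 and 64 counts, and 5 more had too few counts.

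Some TGF-beta pathway genes were called higher, while Klf10 was not. Of 12 tested TGF-beta and Smad genes 4 were called higher and 0 lower, with a median log2 ratio of 0.45 (0.85 when 50 counts were required), and by the adjusted p alone 6 were higher and 2 lower. They include the ligand Tgfb1 (36 and 139 counts, ratio 3.90), the corepressor Tgif1 (91 and 209, 2.32) and Ctgf (752 and 1669, 2.24), a matrix-associated growth factor gene. Of the higher genes not called, Tgfbr2 had 486 and 845 counts (ratio 1.76) and Smad7 80 and 146 (1.85). The 2 lower were the signal transducer Smad3 (97 and 51 counts, ratio 0.532) and the corepressor Ski (269 and 176, 0.662). Klf10, which this pathway is known to induce early, was at 1.11 with an interval that reaches 2.10. Contractile genes, which KLF4 represses and KLF5 can activate, were called in both directions, with 1 higher and 2 lower of 8 tested. Their median was −0.85, or −0.09 when 50 counts were required, while their summed counts were 1904 and 2692. By the adjusted p alone 3 were higher and 4 lower. Of those not called, Acta2 (328 and 609 counts) and Tagln (814 and 1220) were higher, and Smtn (158 and 78) and Srf (165 and 95) lower. Des, desmin, had 169 and 571 counts (ratio 3.42), Myh11, smooth muscle myosin, 237 and 106 (ratio 0.452) and Cnn1, calponin, 17 and 4 (ratio 0.238). Markers of smooth muscle, most of them on the contractile list too, had a median of −0.93 but a higher summed count, 1147 and 1599, and its median turned to 0.0098 when 50 counts were required. Pericyte markers had a median of −0.85, or −0.29 with that minimum, which leaves out Cox4i2 and Lamc3. They summed to 263 and 150 counts, with 3 of 7 tested called lower and 0 higher. The called genes were Higd1b (44 and 6 counts), Cox4i2 (43 and 4) and Lamc3 (29 and 4), while Cspg4 had 31 and 49. The part of these cells in the results was not tested.

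**Figure D5:**
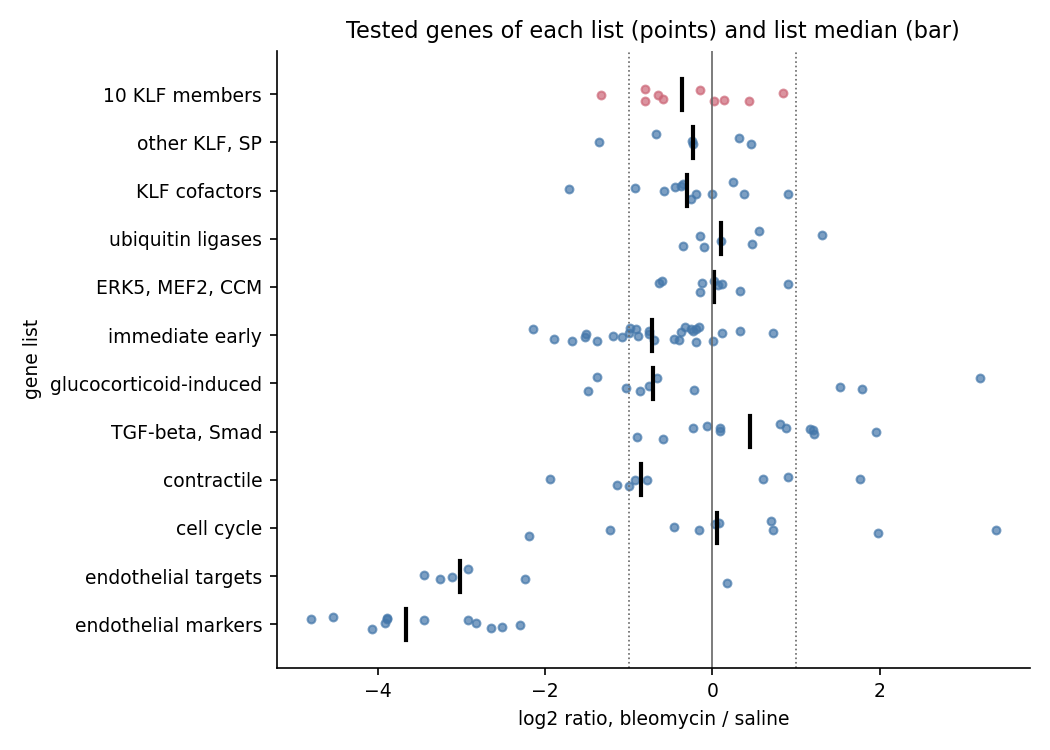
Log2 ratio of bleomycin over saline for each tested gene (points) of 12 lists, with the list median (bar); dotted lines mark a 2-fold change. The members (top row) spread around a median of −0.37, immediate early genes lie lower at −0.72, the ERK5, MEF2 and CCM genes centre on 0.02, and endothelial markers lie lowest at −3.67.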

How the data were processed

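What was measured is 3′ SAGE tags in 2 libraries, 1 of saline and 1 of bleomycin, from sorted lung fibroblasts of 3 mice each. The deposited values are whole-number counts per gene. Per the labels' protocols, libraries came from a SOLiD SAGE kit, and BWA 0.6.2 and the mm9 build stand, without a role, in the submitters' processing notes. The sources used here do not say whether counts were scaled before deposit, and tests hold only for raw counts.

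After 1 blank line was left out, 16040 genes remained. Libraries were scaled by the trimmed mean of M values (edgeR 4.0.16, R 4.3.3; factors 1.01 and 0.986). The quasi-likelihood test could not be fitted without replicates, so the exact binomial test with Benjamini-Hochberg adjustment described above was used, with exact Clopper-Pearson 95% intervals that cover counting error only. Log2 ratios have 0.5 added to each count. The scripts were tested on simulated data. Alternatives were total counts, DESeq2 1.42.0 size factors, no minimum or 50 counts, 5 added to each count, ratios of 1.5 or 3, Bonferroni adjustment, and edgeR's exact test with an assumed variation of 0.2 or 0.4.

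The members, 19 gene lists (12 of pathways, 7 of cell type markers) and tests were chosen with earlier results of these data known. Of 217 list genes, 198 were in the table by symbol. Named genes are all members, tested KLF and SP genes, and of each list up to 6 called genes by count, or the most abundant where none was called. A gene that this rule takes is not reported here. Vcam1, Mapk7, Smad3, Ski, Ctbp1, Sin3a, Pparg and the genes given at 0 were chosen after their values were seen. So were Per1, Dusp1, Tsc22d3, Errfi1, Krt8, Foxj1, Acta2, Tagln, Smtn and Srf, and also Tcf21, Cox4i2, Lamc3, Tgfbr2 and Smad7. Promoters came from RefSeq (GRCm38.p6) and transcripts from GENCODE. Scripts ran under Python 3.11.15 with scipy 1.17.1, numpy 2.4.6 and pandas 2.3.3.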

Additional observations from a re-analysis of the deposited data

How the results depend on the processing

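Of 106 recomputed values of the 10 members and Klf16, 98 kept their direction and their side of the call. Only total counts, DESeq2 size factors and the larger added count alter a log2 ratio, so a kept direction under the other settings tests nothing. A required ratio of 3 and Bonferroni adjustment can only remove calls, and no member had a call to lose. Klf15 was at 0 with DESeq2 size factors and was counted among the 98. Klf15 reversed, from a log2 ratio of 0.016 to −0.025 with total counts, and was called in neither. No member was called under any setting but a ratio of at least 1.5, which called 3 lower (Klf2 at −0.80, Klf4 at −0.81 and Klf9 at −0.65) and 0 higher. By the adjusted p alone, 3 lower and 1 higher became 3 and 0 with Bonferroni adjustment, where Klf6 was lost, and 0 and 0 with an assumed variation of 0.2 or 0.4, settings applied to this count after seeing the data. Klf16, at −1.35, lost its call at a required ratio of 3, under Bonferroni adjustment and under both assumed variations.

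Over all genes, 757 higher and 798 lower became 396 and 484 with a minimum of 50 counts, 443 and 445 where a ratio of 3 was required, 288 and 333 with Bonferroni adjustment, 274 and 333 with an assumed variation of 0.2, and 21 and 8 with 0.4. Over the pathway lists, 11 higher and 22 lower became 17 and 35 where a ratio of 1.5 sufficed, 7 and 12 where 3 was required, and 0 and 0 with an assumed variation of 0.4, and 11 were lower with 0.2. The contractile median of −0.85 was −0.09 with a minimum of 50 counts, and the smooth muscle marker median of −0.93 turned to 0.0098 and the pericyte median of −0.85 to −0.29. With 5 added to each count the median of endothelial targets of KLF2 and KLF4 was −1.88 and not −3.01. No paired analysis was possible because each group is 1 library with no replicate number in the labels. Depth limits Klf3, Klf5, Klf7, Klf10 and Klf15 most, with 22 to 56 counts over both libraries.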

Other observations

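Partners and further targets of Krüppel-like factors gave mixed values. Of 12 tested cofactors 1 was called lower, Rcor1, a scaffold of a histone demethylase complex, with 21 and 6 counts and ratio 0.289 (0.0954 to 0.740), and 0 were called higher. The CtBP gene Ctbp1, partner of Klf3, had 243 and 239 counts (ratio 0.995). Sin3b, partner of the Klf9, Klf10 and Klf13 group and chosen after its values were seen, had 101 and 188 counts and ratio 1.88 (1.47 to 2.42), while Sin3a had 14 and 10. The median log2 ratio of the cofactors was −0.30, or −0.19 when 50 counts were required.

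Among cell cycle genes known to lie under KLF4, KLF5 and KLF6, 2 of 10 tested were called higher and 2 lower, with a median of 0.06. Ccnd1, cyclin D1, had 22 and 87 counts (ratio 4.0), and the mitotic cyclin gene Ccnb1 had 1 and 15 (ratio 15.2, 2.33 to 639). Cdkn1c, a cyclin-dependent kinase inhibitor, had 186 and 40 counts (ratio 0.217) and the kinase gene Pim1 445 and 188 (ratio 0.427). Cdkn1a, the kinase inhibitor p21 and a classical target of KLF4 and KLF6, was chosen after its values were seen and had 583 and 609 counts (ratio 1.06). Of adipogenic genes, to which KLF factors are known to contribute, 4 were tested: Lpl was called higher (127 and 439 counts, ratio 3.50) and Cd36 lower (60 and 4, ratio 0.0674), and Pparg had 3 counts in each library.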
